A study of Mus musculus with 5 samples.

Results

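Accessible chromatin at the Notch1, Hes1 and Ptcra loci was compared between γδ T thymocytes and double-positive (DP) thymocytes of mice. The members are the ATAC-seq peaks that overlap 3 windows chosen by gene name on the mm9 genome. These are chr2:26280000-26400000 (120 kb, Notch1), chr16:30020000-30120000 (100 kb, Hes1) and chr17:46850000-46940000 (90 kb, Ptcra). The windows held 115 of the 332881 peaks in the 5 deposited lists. After peaks that shared at least 1 bp were merged across lists, they held 62 of 157434 regions, with 26 at Notch1, 20 at Hes1 and 16 at Ptcra.

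ATAC-seq maps open DNA through the sites that a transposase can cut and tag. The series has 5 libraries, 1 per group and each from 40000 sorted cells, all of strain C57BL/6. The SOX13hi and SOX13lo libraries are CD24+ γδ thymocytes that were CFPhi or CFPlo/-, respectively, from animals of genotype TCRbeta KO.Sox13 ECFP KI/+. The transgenic SOX13hi and transgenic SOX13lo libraries are the same sorts from TCRbeta KO.Sox13tg+.Sox13 ECFP KI/+ animals. DP thymocytes came from wild type animals, so every γδ library carries the TCRbeta knockout and the CFP reporter allele and DP carries neither. Cell type and genotype cannot be told apart in any comparison of γδ with DP cells. CFP stands in for Sox13, a gene for an HMG-box transcription factor, and the sources used here do not give the promoter of the transgene, the ages or any pooling of animals.

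Notch1 encodes a receptor that, when bound by a ligand on a neighbouring cell, is cut to release an intracellular part that acts in the nucleus with the DNA-binding protein RBPJ. Notch1 signalling commits thymic progenitors to the T lineage and is needed for αβ development past the β-selection checkpoint. Hes1 encodes a basic helix-loop-helix repressor and is a classical direct target of Notch. Ptcra encodes pre-Tα, the invariant chain that pairs with a newly made TCRβ chain to form the pre-TCR, so a TCRbeta knockout leaves it without its partner. Ptcra is also a known target of Notch and of E proteins, which bind E-box sequences.

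The sequences in front of the Notch1 and Ptcra genes are shown because they carry, or lack, the letters that RBPJ and E proteins are known to read. Both are the 250 bases before the gene's start, 5′ to 3′ on the gene's strand, from RefSeq on GRCm38.p6. Capitals mark TGGGAA (the RBPJ core) and CAGCTG (an E-box form bound by E proteins), each searched on both strands. Notch1 is at chr2:26503823-26504072 and Ptcra at chr17:46763713-46763962, both on the minus strand. These GRCm38.p6 positions were not converted to mm9 and so were not set beside the peaks. No peak is therefore assigned to a promoter, exon or intron. In RefSeq gene order the nearest protein-coding neighbours are Sec16a and Egfl7 for Notch1, Opa1 and Cpn2 for Hes1, and Cnpy3 and 2310039H08Rik for Ptcra. Whether any of them reaches into the windows was not determined.
Notch1: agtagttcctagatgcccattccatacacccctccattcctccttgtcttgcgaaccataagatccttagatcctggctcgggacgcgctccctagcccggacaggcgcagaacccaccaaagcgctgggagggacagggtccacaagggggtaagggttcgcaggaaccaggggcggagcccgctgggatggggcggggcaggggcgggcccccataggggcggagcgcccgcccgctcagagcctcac
Ptcra: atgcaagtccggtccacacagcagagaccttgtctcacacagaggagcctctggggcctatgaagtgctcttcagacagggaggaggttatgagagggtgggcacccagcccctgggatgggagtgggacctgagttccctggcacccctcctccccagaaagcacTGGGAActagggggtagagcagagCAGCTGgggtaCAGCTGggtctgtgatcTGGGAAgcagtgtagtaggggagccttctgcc
The Ptcra sequence held TGGGAA at 2 places, beginning 84 and 32 bases before the start, and CAGCTG at 2 places between them, beginning 60 and 49 bases before it. Of 32851 promoter entries of the same length, 21.6% held TGGGAA and 13.0% held CAGCTG. The Notch1 sequence held neither, and its GC content was 66%, against 60.4% for Ptcra and a median of 52.4%. The general E-box CANNTG, which includes CAGCTG, is in 66.2% of entries and gave no further match in either gene. The remaining motifs searched were in neither sequence. These were ACAAT for SOX factors (held by 27.7% of entries), CTTTGA for TCF and LEF factors (13.8%) and TGTGGT for RUNX factors (14.0%). They also included AGATAA for the GATA family (9.99% of entries), GGAAGT for ETS factors (19.7%) and AACNG for MYB (74.2%). A match is a run of letters and not a shown binding site.

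The lists differ in length, from 33155 peaks in transgenic SOX13lo and 54435 in SOX13hi to 63932 in transgenic SOX13hi, 67482 in SOX13lo and 113877 in DP. Read depth is not given in the sources used here, so list length may reflect sequencing as well as open chromatin. What the deposited score of a peak counts is not stated, so scores were used only as a rank, which is the percentage of peaks in the same list with a lower score. A rank of 0% is the lowest score of a list, 5 in DP and 7 or 8 in the γδ lists. Since the lists differ in length, a rank gives a peak's place in its own list, and a gap in rank between lists does not by itself show a change in accessibility. In the SOX13lo list all peaks bear the name SOX13hi, and GEO's label was taken as right. The transgenic SOX13hi and DP libraries carry the same index sequence in the labels. With no replicate there is no test between groups, and the Poisson and ratio intervals below cover counting error alone. Defining markers of the sorted populations were not checked, because genes were not placed on mm9.

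All 5 libraries had peaks at each locus, and DP had the most at each. At Notch1 the lists held 6 peaks in SOX13hi, 6 in SOX13lo, 9 in transgenic SOX13hi and 8 in transgenic SOX13lo, against 20 in DP. At Hes1 they held 2, 7, 4, 5 and 16 peaks, in the same order. At Ptcra they held 5, 6, 4, 2 and 15. The exact Poisson 95% interval of the DP count was 12.2 to 30.9 at Notch1, 9.15 to 26.0 at Hes1 and 8.40 to 24.7 at Ptcra. These intervals overlap those of the γδ libraries except for SOX13hi at Hes1 (up to 7.22) and transgenic SOX13lo at Ptcra (also up to 7.22).

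Once the lists were put on 1 scale, DP had more regions than every γδ library at Ptcra alone. Scaled to 10000 merged regions of each library, Notch1 had 0.909 regions in SOX13hi, 0.681 in SOX13lo, 1.51 in transgenic SOX13hi and 2.82 in transgenic SOX13lo, against 1.81 in DP. DP then lay inside the γδ range at Notch1 and also at Hes1, where the values were 0.454, 1.02, 0.754, 1.61 and 1.45. At Ptcra DP (1.36) stayed above all 4 γδ libraries, which had 1.14, 0.851, 0.565 and 0.403. The mean of the γδ libraries over DP was 0.816 at Notch1 (interval 0.369 to 1.35), 0.662 at Hes1 (0.286 to 1.30) and 0.543 at Ptcra (0.255 to 1.27). None was past 2-fold with all peaks. Ptcra was at 0.326 with lists of equal length and at 0.491 with the upper 50% of each list by score, and Notch1 was at 0.498 with the upper 50%. The direction turned at Notch1 with peaks joined within 150 bp (1.01) and at Hes1 with peaks joined within 1 kb (1.12). In windows of the same width along the genome, γδ was 2-fold or more below DP in 13.4% (Notch1 width), 14.4% (Hes1 width) and 15% (Ptcra width). The median ratio of these windows was 1.02 to 1.03. The shares and medians were taken with all peaks, so they are not a background for the ratios from shortened lists. With every list limited to its 33155 highest-scoring peaks, the length of the shortest list, Notch1 held 5, 4, 5 and 8 γδ peaks and 8 in DP, in the order used above. Ptcra then held 3, 2, 2 and 2 γδ peaks and 7 in DP. Peaks whose scores tied at the limit were kept or left out by their order in the list. At Ptcra the peaks of score 10 in SOX13hi and 12 in transgenic SOX13hi were kept. The peak of score 15 in SOX13lo was left out. The γδ counts there, and the ratio of 0.326, thus depend partly on that order.

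**Figure D1:**
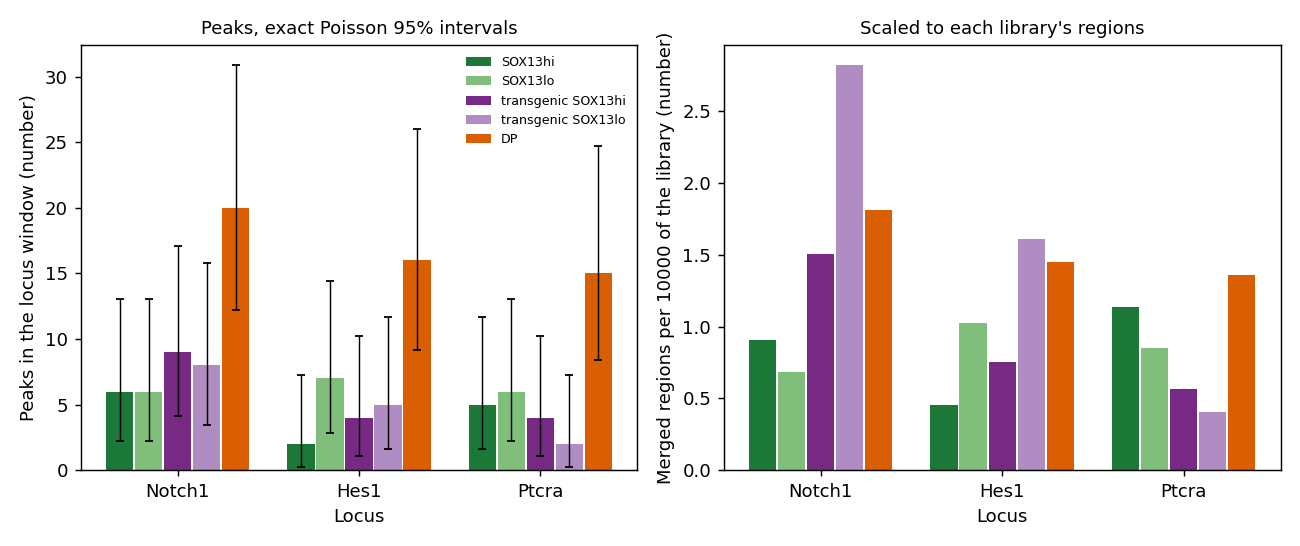
Left, number of peaks in each locus window per library, with exact Poisson 95% intervals as bars; right, merged regions of the locus per 10000 merged regions of that library. DP is highest at all 3 loci on the left, and after scaling it is highest only at Ptcra (1.36 regions per 10000).

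Joining regions over gaps of at most 1 kb gave 9 clusters at Notch1, of which 2 had peaks in all 5 libraries. Hes1 had 1 such cluster of 4 and Ptcra 1 of 7, and over the genome 23.6% of clusters had peaks in all 5. Clusters with peaks in 3 or more libraries numbered 2 of 9 at Notch1, 3 of 4 at Hes1 and 3 of 7 at Ptcra, against 46.7% of all clusters. The first shared cluster at Notch1, chr2:26300491-26301655, was the strongest site of the window in every library. Its top peak had a rank of 86.8% in SOX13hi, 81.3% in SOX13lo, 93.5% in transgenic SOX13hi and 79.3% in transgenic SOX13lo, against 98.2% in DP. The ranks are high in all 5 lists, and DP is the highest. These peaks belong to the merged region chr2:26300606-26301119, the reference region of this window. It was chosen by its mean rank, and whether it belongs to Notch1 or to a neighbouring gene was not determined. A neighbouring region in the cluster, chr2:26301266-26301436, was also in all 5 lists, at ranks of 62.8%, 71.7%, 64.4%, 0% and 90.1% in the same order.

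The second shared cluster at Notch1, chr2:26357678-26359836, lay 57.9 kb from the reference region, centre to centre, toward higher coordinates. It held 9 peaks in DP, 3 in SOX13hi and 2 in each of the other γδ libraries. Its strongest region, chr2:26359214-26359502, had a rank of 46.4% in SOX13hi, 56.9% in SOX13lo, 85.4% in transgenic SOX13hi and 20.4% in transgenic SOX13lo, against 90.5% in DP. The transgenic SOX13hi value stands near that of DP, and transgenic SOX13lo is the lowest. Peaks covered 317 bp of this cluster in transgenic SOX13hi, 96 bp in SOX13hi, 118 bp in SOX13lo, 104 bp in transgenic SOX13lo and 639 bp in DP.

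A strong DP site at Notch1 had no counterpart in the γδ lists. The DP peak chr2:26323889-26324409, 521 bp wide, outscored 91.2% of the DP list. The nearest γδ peak, in transgenic SOX13hi, was 7313 bp away, and the distances in the other 3 libraries were 18614 to 22484 bp. Across the genome, 3.35% of DP peaks with a rank of at least 90% met no γδ peak, and 1.95% had none within 1 kb. At the 3 loci together 1 of 5 such peaks met none, the one described. A second DP-only cluster, chr2:26362972-26363346, had 2 peaks with a highest rank of 69.1% and lay 3469 bp from the nearest γδ peak.

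Further sites at Notch1 were shared by DP and a single γδ library. The region chr2:26305151-26305274 was in transgenic SOX13lo (rank 30.9%) and DP (72.0%). The region chr2:26368876-26369191 was also in transgenic SOX13lo (38.9%) and DP (80.03%), and chr2:26349041-26349282 was in transgenic SOX13hi (19.0%) and DP (75.03%). All 3 ranked higher within the DP list than within the γδ list that held them, and SOX13hi and SOX13lo had no peak in any. The other 2 clusters were single peaks of rank 0% and 28 bp, at chr2:26316548-26316575 in transgenic SOX13hi and chr2:26355599-26355626 in transgenic SOX13lo.

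**Figure D2:**
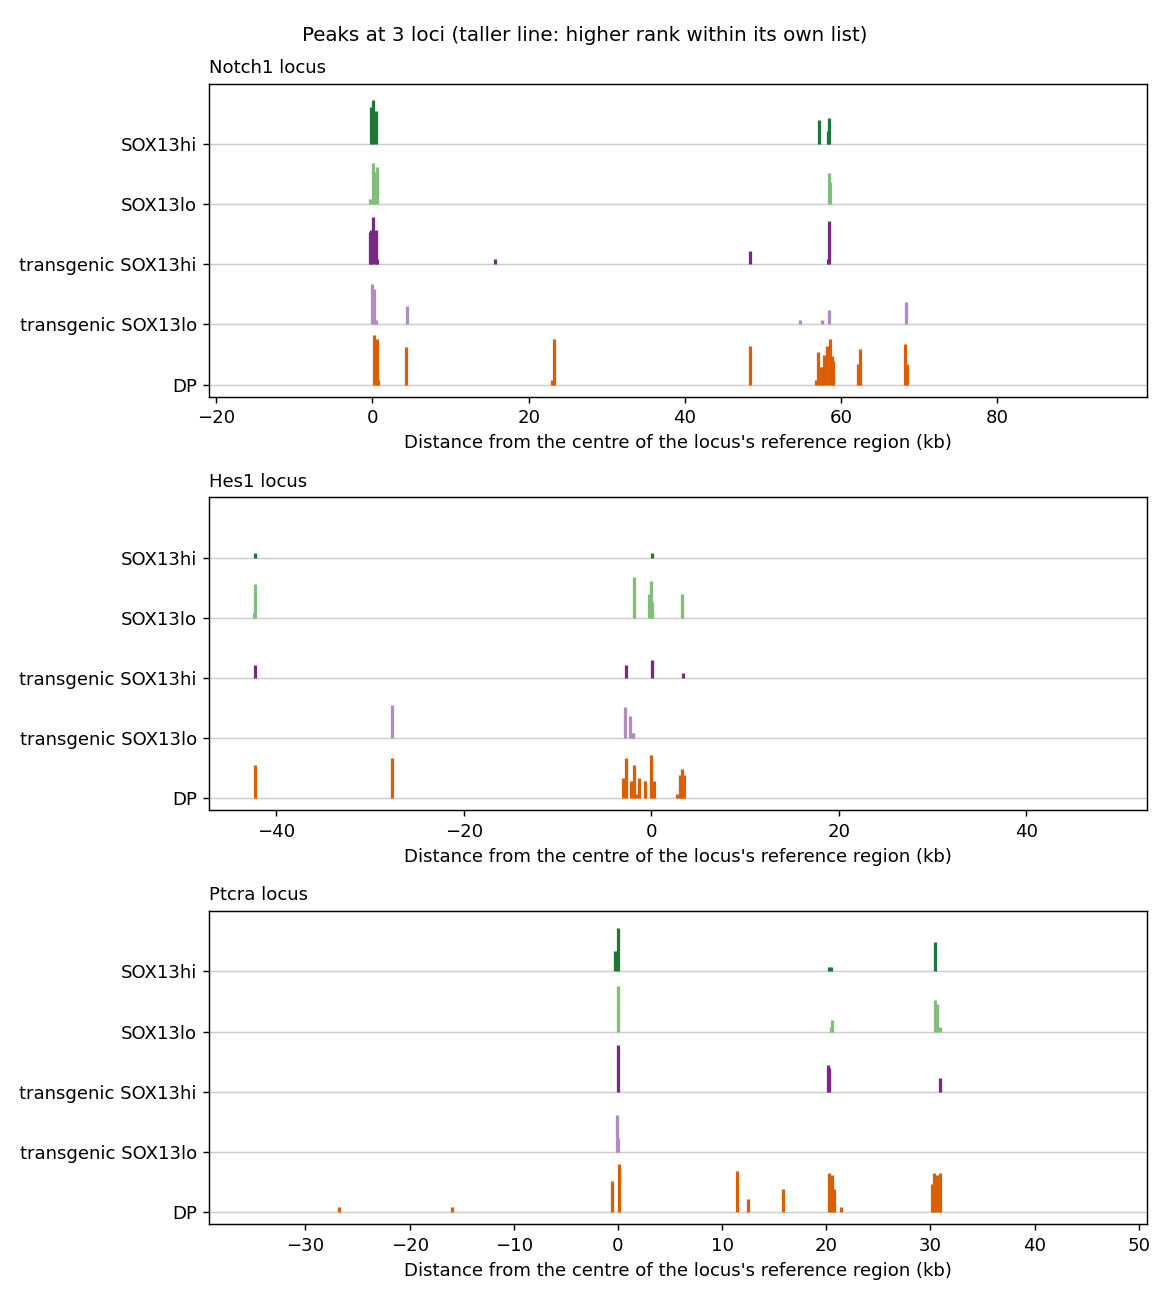
Peaks of each library along the 3 windows, as vertical lines placed by distance (kb) from the centre of the region with the highest mean rank of that window; line height rises with the peak's rank in its own list. At Notch1 all 5 libraries have tall lines near 0 kb and peaks near 58 kb, and the tall DP line near 23 kb has no γδ line beside it.

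At Hes1, the Notch target gene, the top peak ranked higher in the SOX13lo list than in the SOX13hi list of each genotype, though at different sites. In transgenic cells the SOX13lo peaks covered 141 bp, with a median width of 28 bp, and the SOX13hi peaks covered 186 bp, with a median of 45.5 bp. Transgenic SOX13lo had no peak in the region chr16:30067015-30067271, where transgenic SOX13hi had its top peak. When every list was limited to its 33155 highest-scoring peaks, the Hes1 window held 0 peaks in SOX13hi, 3 in SOX13lo, 0 in transgenic SOX13hi and 5 in transgenic SOX13lo, against 3 in DP. Neither SOX13hi list thus had a Hes1 peak at this limit, whereas both SOX13lo lists and DP had. The transgenic SOX13lo list stays whole in this comparison, being the shortest, and 2 of its 5 peaks have a rank of 0%. Along the genome, 0.98% of 100 kb windows had 0 peaks in both SOX13hi lists and at least 1 in each SOX13lo list under this limit, and 1.35% had the opposite pattern. A further count asked for at least 3 peaks in each SOX13lo list, a number set after the Hes1 values were seen. The share was then 0.0327% (3 of 9188 windows), and 0.0218% (2 windows) for the opposite pattern. Because the number was fitted to Hes1, these shares cannot show how rare its pattern is.

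The top Hes1 peak had a rank of 0% in SOX13hi, 79.3% in SOX13lo, 28.8% in transgenic SOX13hi and 61.8% in transgenic SOX13lo, against 86.0% in DP. The number of peaks in the same list that outscored it was 44487 in SOX13hi, 13716 in SOX13lo, 40627 in transgenic SOX13hi and 11854 in transgenic SOX13lo, against 15712 in DP. By this count both SOX13lo libraries and DP lie close together, though the lists differ in length and the top peaks are at different sites. The sites are chr16:30065143-30065385 in SOX13lo, chr16:30039420-30039448 (29 bp) in transgenic SOX13lo and chr16:30067015-30067271 in DP. Both SOX13hi libraries have their top Hes1 peak much further down. No peak of either SOX13hi list (0 of 2 and 0 of 4) reached a rank of 50%, against 3 of 7 in SOX13lo, 2 of 5 in transgenic SOX13lo and 6 of 16 in DP. The counts behind the pattern are small. With all peaks, SOX13hi over SOX13lo was 0.445 in scaled regions (interval 0.0439 to 2.49) and 0.467 in transgenic cells (0.0871 to 2.51). Both intervals include 1. With peaks joined within 1 kb the ratios were 0.78 and, in transgenic cells, 0.841, and joining within 150 bp gave 0.697 in transgenic cells, so these were no longer past 2-fold. SOX13hi was 2-fold or more lower in 12.1% of windows in the first pair, 14.1% in the transgenic pair and 2.47% in both.

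The Hes1 peaks fell into 4 clusters. The main one, chr16:30064111-30067513, was in all 5 libraries with 1 peak in SOX13hi, 4 in SOX13lo, 2 in transgenic SOX13hi and 4 in transgenic SOX13lo, against 9 in DP, and these covered 28, 389, 95, 112 and 968 bp. No single merged region of it was in all 5 libraries. The region chr16:30067015-30067271 was in SOX13hi (rank 0%), SOX13lo (71.7%), transgenic SOX13hi (28.8%) and DP (86.0%), and transgenic SOX13lo had no peak in it. The region chr16:30065143-30065385 was the 1 region of the 3 loci found in both SOX13lo lists and neither SOX13hi list, a pattern of 0.574% of all regions. Its rank was 79.3% in SOX13lo and 0% in transgenic SOX13lo, against 64.0% in DP. The region chr16:30064364-30064445 was in both transgenic γδ lists and neither non-transgenic γδ list, a pattern of 0.696% of all regions. Its rank was 19.0% in transgenic SOX13hi and 59.2% in transgenic SOX13lo, against 78.8% in DP.

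The 3 smaller Hes1 clusters were each in DP and in some γδ libraries. The cluster chr16:30024782-30024979 had top ranks of 0% in SOX13hi, 64.7% in SOX13lo, 19.0% in transgenic SOX13hi and 62.5% in DP. SOX13lo and DP stand close together there, and transgenic SOX13lo had no peak. The cluster chr16:30069856-30070636 held 5 DP peaks, with a top rank of 54.4%, and 1 peak each in SOX13lo (42.2%) and transgenic SOX13hi (0%). At chr16:30039420-30039506 a transgenic SOX13lo peak (61.8%) and a DP peak (78.3%) were separated by 1 bp, so the overlap rule counts the DP peak as DP-only.

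**Figure D3:**
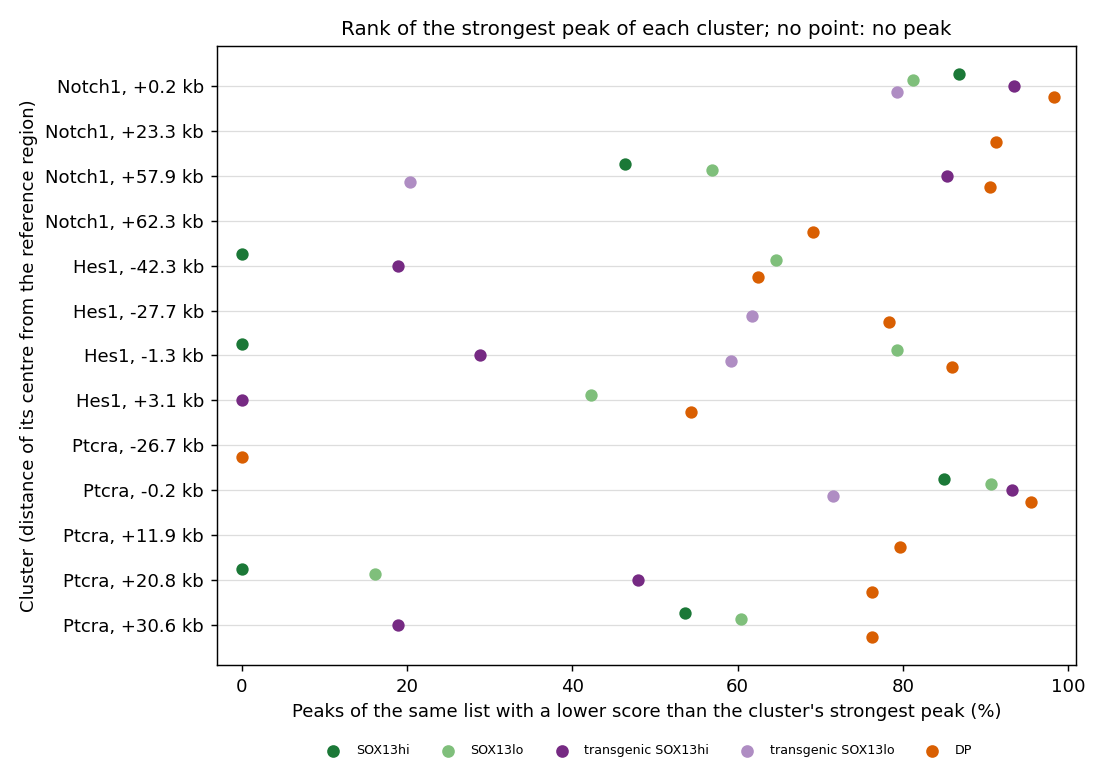
Rank (%) of the strongest peak of each library in 13 clusters: those with peaks in at least 3 libraries, and at each locus the 2 others with most peaks in any library. In each Hes1 cluster the SOX13hi and transgenic SOX13hi points, where present, lie at or below 28.8%, and at the shared Notch1 and Ptcra sites nearest 0 kb all 5 points lie at 71.6% or above.

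At Ptcra, the pre-TCR gene, 1 of 7 clusters was in all 5 libraries. This cluster, chr17:46888634-46889348, contains the region chr17:46889094-46889348 with ranks of 85.0% in SOX13hi, 90.6% in SOX13lo, 93.2% in transgenic SOX13hi and 71.6% in transgenic SOX13lo, against 95.5% in DP. Every list holds its strongest peak of the Ptcra window there, and transgenic SOX13lo is the lowest. Whether this site belongs to Ptcra or to a neighbouring gene was not determined. The cluster was the sole one of the window with a transgenic SOX13lo peak. Together with 3 regions at Notch1, the region chr17:46889094-46889348 made up the 4 of 62 member regions present in all 5 libraries (6.45%), against 9.45% of all regions.

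The other Ptcra sites ranked higher within the DP list than within any γδ list that held them. The cluster chr17:46909371-46910628 lay 20.8 kb from the shared region and had top ranks of 0% in SOX13hi, 16.1% in SOX13lo, 47.9% in transgenic SOX13hi and 76.3% in DP. The cluster chr17:46919299-46920243 had top ranks of 53.7% in SOX13hi, 60.4% in SOX13lo, 19.0% in transgenic SOX13hi and 76.3% in DP. SOX13hi and SOX13lo are close to each other there and above transgenic SOX13hi. Within the first, the region chr17:46909371-46909570 was in both SOX13hi lists and neither SOX13lo list, a pattern of 2.42% of all regions. The regions chr17:46909653-46909840 and, in the second, chr17:46919544-46919706 were in both non-transgenic γδ lists and neither transgenic one, also a pattern of 2.42%.

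DP alone held 4 of the 7 Ptcra clusters, 2 of the 9 at Notch1 and 0 of the 4 at Hes1, against 27.7% of all clusters of the genome. The strongest of these peaks, chr17:46900468-46900781 (314 bp), outscored 79.6% of the DP list, and the nearest γδ peak was 8595 bp away. Among DP peaks of the genome with a rank of at least 75%, 6.5% had no γδ peak within 1 kb, against 2 of 14 at the 3 loci, this peak and the one at Notch1. Both were among the 33155 highest-scoring DP peaks. The other DP-only clusters were single peaks of rank 40.9% (chr17:46905020-46905117) and 0% (chr17:46862466-46862493 and chr17:46873274-46873301).

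Over the 3 loci, 33 of 62 regions (53.2%) were in DP and no γδ list, against 40.3% of all regions. They comprised 13 at Notch1, 11 at Hes1 and 9 at Ptcra. Many adjoined γδ peaks, since 9 of the 33 lay more than 1 kb from every γδ peak, with 4 at Notch1, 0 at Hes1 and 5 at Ptcra. As a share of the 51 DP peaks this is 17.6%, against 21.3% of all DP peaks. No region was in all 4 γδ lists and absent from DP, a pattern of 0.694% of all regions. Regions of any γδ list that DP lacked numbered 11 (17.7%, against 29.9% of all regions). Of these, 10 were in 1 γδ list (16.1% of the 62 regions, against 23.5% of all regions). DP shared a further 14 regions with 1 to 3 γδ lists (22.6%, against 20.3% of all regions). Of the regions that each γδ library held at the loci, DP also held 9 of 11 in SOX13hi (81.8%, against 67.2% of that library's regions over the genome) and 12 of 15 in SOX13lo (80%, against 61.8%). In the transgenic libraries DP held 11 of 15 for SOX13hi (73.3%, against 63.6%) and 9 of 12 for SOX13lo (75%, against 76.4%).

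**Figure D4:**
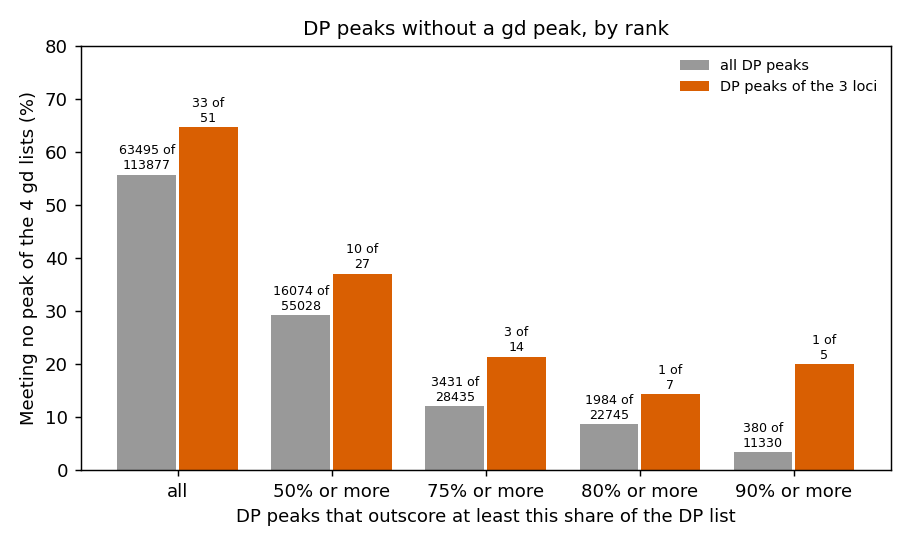
Percentage of DP peaks that met no peak of the 4 γδ lists, for all DP peaks and for peaks outscoring at least 50%, 75%, 80% or 90% of the DP list; grey, whole genome; orange, the 3 loci, with counts above the bars. Over the genome the share falls at each step, from 55.8% to 3.35%, and at the loci it is 33 of 51, 10 of 27, 3 of 14, 1 of 7 and 1 of 5 peaks.

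In scaled regions at Ptcra, SOX13hi over SOX13lo was 1.33 (0.307 to 5.80) in non-transgenic and 1.40 (0.113 to 73.6) in transgenic cells. With the upper 50% of each list by score they were 0.87, where the direction turned, and 1.01. The intervals are wide because 1 to 5 regions stand behind each value. Transgenic and non-transgenic cells were compared within each sort. At Ptcra, transgenic over non-transgenic was 0.498 in SOX13hi (3 regions against 5, interval 0.0773 to 2.56) and 0.473 in SOX13lo (1 against 5, interval 0.0100 to 4.23). Both intervals include 1. With the upper 50% of each list, lists of equal length, or peaks joined within 150 bp or 1 kb, the ratios were 0.651 to 0.863 in SOX13hi and 0.592 to 0.741 in SOX13lo, none past 2-fold. Transgenic SOX13hi was 2-fold or more below SOX13hi in 8.67% of windows of that width, and transgenic SOX13lo below SOX13lo in 23.7%. At Notch1 the ratio was 1.66 in SOX13hi (0.444 to 7.53) and 4.14 in SOX13lo (7 regions against 4, interval 1.05 to 19.3), and a ratio of 2 or more was seen in 12.6% of windows for SOX13lo. With lists of equal length the SOX13hi ratio was 0.976, on the other side of 1. Of the 8 transgenic SOX13lo peaks at Notch1, 3 had a rank under 10%. A rank of at least 50% was held by 2 of the 8, against 49.1% of peaks in that whole list. With the upper 50% of each list by score the SOX13lo ratio at Notch1 was 0.741, so its direction turned. At Hes1 the ratios were 1.66 (0.238 to 18.3) and 1.58 (0.328 to 6.65), and 2.49 and 2.37 with the window shortened by 10 kb at each end. The shortened window held 3 peaks in transgenic SOX13hi and 1 in SOX13hi, and 5 in transgenic SOX13lo and 5 in SOX13lo. In windows of the full Hes1 width, transgenic SOX13hi was 2-fold or more above SOX13hi in 11.3% and below it in 8.01%. Transgenic SOX13lo was above SOX13lo in 13.8% and below it in 23.4%.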

How the data were processed

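Chromatin accessibility was measured in 5 libraries, 1 per group. For each library the authors deposited a list of peaks, each with a position and a whole-number score. The build is mm9, per the submitters' processing notes. The sources used here do not give the aligner, peak caller, threshold or read filters. The deposited score was used only for ranks within a list. Peaks of all lists were merged where they shared at least 1 bp. Windows for the background were tiled along the autosomes, X and Y at the width of each locus and kept where they held at least 5 merged regions. Intervals are exact at the 95% level: Poisson for a count, conditional binomial for a ratio, which pools the γδ libraries against DP. A ratio was called at 2-fold. Functions were tested on simulated lists. Regions named are, per locus, the 6 with the highest mean rank and up to 3 of the highest rank for each of 6 presence patterns; clusters named are those in at least 3 libraries and the next 2 by peak number. Others were named after their values were seen. The members and lists were chosen with earlier results of these data known. Planned lists of other Notch pathway genes were not used, because gene positions on mm9 were not at hand. Tools were Python 3.11.15, scipy 1.17.1, pandas 2.3.3, numpy 2.4.6 and matplotlib 3.10.9.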

Additional observations from a re-analysis of the deposited data

Results flagged for a closer look

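At Notch1 the number of regions was equal in SOX13hi and SOX13lo of non-transgenic cells (4 against 4) and higher by 1 in SOX13hi of transgenic cells (8 against 7). Scaled to the number of regions of each library, SOX13hi over SOX13lo was 1.33 in non-transgenic and 0.534 in transgenic cells. The opposite directions of these ratios are those of the scaled values and are not seen in the counts. The difference was not tested, each ratio rests on 1 library per side, and both intervals include 1 (0.248 to 7.16 and 0.169 to 1.73). With the upper 50% of each list by score the transgenic ratio was 2.03, in the same direction as the other.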

How the results depend on the processing

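Of 294 values recomputed under other settings, 248 stayed, 45 moved and 1 reversed. Staying meant within the interval, or within 1.5 times for counts of regions. The top rank of a locus was taken from the whole list. Where its peak was kept, filtering or joining could not change it, and it counted as stayed. All top ranks with a value stayed. They numbered 13 with the upper 50%, 13 with lists of equal length and 15 in each of the joined and shortened-window settings. The number that stayed is raised by these values. A reversal was counted only for a ratio of 2-fold or more in either direction with all peaks that then crossed 1. Other ratios that crossed 1 were counted as stayed or moved, among them SOX13hi over SOX13lo in transgenic cells at Notch1 (0.534 to 2.03). The ratio that reversed had an interval that excluded 1. The reversal was the transgenic over non-transgenic ratio in SOX13lo at Notch1 with the upper 50% by score (0.741 in place of 4.14). With that filter, peaks fell to 2 in transgenic SOX13lo and 12 in DP at Notch1, and to 0 in both SOX13hi lists and 6 in DP at Hes1. Regions in all 5 lists at Notch1 were then 1, DP-only regions 2 at Hes1 and 5 at Ptcra, and γδ regions absent from DP 1, 1 and 0 at Notch1, Hes1 and Ptcra. SOX13hi over SOX13lo was 0 in both genotypes at Hes1 and 2.03 in transgenic cells at Notch1. With lists of equal length, DP peaks were 8, 3 and 7 at Notch1, Hes1 and Ptcra, SOX13lo peaks 2 at Ptcra and both SOX13hi lists 0 at Hes1. The SOX13hi over SOX13lo ratios at Hes1 were again 0 (against 0.78 and, in transgenic cells, 0.841 with peaks joined within 1 kb), and DP-only regions were 3, 1 and 4. With peaks joined within 150 bp, DP-only regions were 3 at Notch1 and 5 at Hes1, and γδ regions absent from DP 2, 1 and 0. With peaks joined within 1 kb, Notch1 had 2 peaks in SOX13lo, 4 in transgenic SOX13hi and 7 in DP, and DP had 4 at Hes1 and 7 at Ptcra. DP-only regions were then 2, 0 and 4, γδ regions absent from DP 2, 0 and 0, and 1 Hes1 region was in all 5. With peak centres within 200 bp, 7 DP peaks at Notch1 and 7 at Hes1 had no γδ partner, and with a reciprocal overlap of 50% all 15 at Ptcra had none. The cause of these changes was not tested. The γδ over DP ratio turned to 1.01 at Notch1 with peaks joined within 150 bp and to 1.12 at Hes1 with peaks joined within 1 kb. With each γδ list left out in turn, an alternative chosen after seeing the data, it was below 1 at each locus (0.569 to 0.963 at Notch1, 0.512 to 0.778 at Hes1, 0.446 to 0.626 at Ptcra). At Hes1, neither SOX13hi list had a top rank, and the transgenic over non-transgenic ratio of SOX13hi had no value, with the upper 50% or with lists of equal length. Read depth is unknown, so an absent peak may lie below a list's threshold. No paired analysis was possible because each group holds 1 library.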
